A study of Homo sapiens with 6 samples.

Results

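Of 10 nuclear genes for the chaperones and ATP-dependent proteases of mitochondria, the chaperone HSPA9 and the protease LONP1 were higher in the HT29 samples labelled NS398-treated than in those labelled control, with a fold of 1.95 and 2.04, and 0 were lower at an adjusted p under 0.05 in limma. SPG7 is counted among the 10, but its only own probe set lay near background and could not be read. Of 6 probe sets that name SPG7 beside another gene, 2 were called lower. The members are the chaperones HSPD1, HSPE1, HSPA9 and TRAP1 and the proteases LONP1, CLPP, CLPX, YME1L1, SPG7 and AFG3L2. They were chosen by name and with earlier results of these arrays known. A probe set was taken where the annotation of the array names 1 of these genes and no other. This gave 40 of 54675 probe sets, 12 for the 4 chaperones and 28 for the 6 proteases, and 10 of the 19775 genes that have a probe set of their own.

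The cells were HT29, a line from a human adenocarcinoma of the colon, and the arrays were HG-U133 Plus 2.0, 3 of NS398-treated and 3 of control cells. NS398 selectively blocks COX2, which makes prostaglandins and is induced in inflammation and in many tumours. By the methods of the study the treated cells had the highest of several doses for 3 days in medium without serum, and the control cells had the solvent, DMSO. All 6 samples are of 1 cell line, the replicates of a group are called biological there, and the labels name no culture, date or batch, so each p-value reflects only how these samples vary.

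Most mitochondrial proteins are made in the cytosol, threaded unfolded through the membranes and folded inside. HSPA9 pulls the chain in, HSPD1 and its lid HSPE1 form the chamber in which many matrix proteins fold, and TRAP1 is the HSP90 relative of the organelle. Proteins that do not fold are cut by LONP1 and by CLPP with its unfoldase CLPX in the matrix, by the AFG3L2 and SPG7 complex on the matrix face of the inner membrane, and by YME1L1 on the opposite face. When unfolded proteins build up in mitochondria, cells can raise the transcripts of several of these genes, a response that in mammals has been linked to the transcription factors ATF4, ATF5 and DDIT3 (CHOP).

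Sequence upstream of the start sites is shown for the members that the results below turn on, HSPA9, LONP1 and the HSPD1 and HSPE1 pair, so that the letters they share can be seen. It comes from RefSeq (GRCh38.p14), whose promoter table used here holds 8 of the 10 members; CLPP and YME1L1 were not searched. Each run is printed 5′ to 3′ on the strand of the gene, with CACGTG, the palindromic core called the E-box, in capitals. The HSPA9 run is the 100 bases before the start (chr5:138575402-138575501, minus strand). The 2 LONP1 runs of 30 bases are centred on the matches before the start at position 5720146 of chromosome 19 (chr19:5720341-5720370 and chr19:5720178-5720207, minus strand). LONP1 has a further start at position 5720452, which lies upstream of both matches. No CACGTG was found in the 250 bases before that start.
HSPA9: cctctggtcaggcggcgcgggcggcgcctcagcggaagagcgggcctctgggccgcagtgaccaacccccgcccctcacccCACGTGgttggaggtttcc
LONP1 window 1: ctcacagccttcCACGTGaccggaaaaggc
LONP1 window 2: cgcgccgggcgtCACGTGcgtttcgcggcg

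HSPD1 and HSPE1 lie head to head on chromosome 2, with 104 bases between their start sites, so a single stretch is upstream of both. It is printed on the strand of HSPE1 (chr2:197500275-197500378, plus strand), with the E-box core in capitals.
HSPD1-HSPE1: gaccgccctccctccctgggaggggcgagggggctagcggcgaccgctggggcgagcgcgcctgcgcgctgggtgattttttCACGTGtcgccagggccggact
The core CACGTG was found on either strand within the 250 bases before a start in 4 of the 8 members with sequence (HSPD1, HSPE1, HSPA9 and LONP1), and the HSPD1 and HSPE1 match is the same 6 letters. Over all 27305 genes of the table the share was 7.73%.

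HSPD1 has a further start, 434 bases into the gene, and before it lie inverted repeats of the kind bound by heat shock factors. They are shown because the heat shock genes of the cytosol are compared with the members below (chr2:197500063-197500089, minus strand). The capitals hold TTCNNGAA at 2 places and GAANNTTC at 1 place, which overlap.
HSPD1 element: cattTTCTGGAAAGTTCTGGAAccgag
HSPD1 was the only member of the 8 with either motif, against shares of 8.12% of genes for TTCNNGAA and 7.05% for GAANNTTC. The cyclic AMP response element TGACGTCA was found in TRAP1 and in 2.03% of genes. CGCATGCG, the core bound by NRF1, was found in LONP1 and in 2.14% of genes. In LONP1 it lay before the start at position 5720452, and not before the one with the E-box cores. TGATGNAA, the composite site of C/EBP and ATF factors, was in 0 of the 8 members and in 3.89% of genes. A match is a run of letters, and binding was not measured.

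Values are array signals, linear and scaled by the authors to the same trimmed mean on each array, and a gene was read from its probe set with the highest mean. Differences (log2, NS398 minus control) carry the standard error (SE) of the fit, and adjusted p-values are from the limma variance-trend test over all 54675 probe sets. That test called 5.23% of genes higher and 4.85% lower, and 6.43% of probe sets in either direction. The direction follows the sample labels. Growth and death genes whose direction the study's text states were checked, though not every such gene, and most were found the other way here. Of 16 checked genes stated as higher that were measured, 15 had a difference below 0 and 12 were called lower. Of 5 stated as lower, 4 were called higher and 1 was called lower. Whether the group labels were exchanged was not tested, and if they were, every direction given here, those of HSPA9 and LONP1 included, would be turned. PTGS2, the gene of COX2, had signals of 147.5, 141.6 and 76.3 in NS398 cells, against 183.9, 382.9 and 328.4 in control cells (-1.29 ± 0.35, adjusted p = 0.0532).

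Pearson's r across the 22399 probe sets whose log2 signal averaged over 7 was 0.961 to 0.983 between arrays of a group and 0.931 to 0.952 between groups. Of 10 colon epithelial markers, 6 had a mean signal above 128, and CDX1, CDX2, CDH17 and GPA33 did not. VIL1 was called lower (-0.71 ± 0.13, adjusted p = 0.00895) and the dim GPA33 higher (1.58 ± 0.41, adjusted p = 0.0464). Their summed signal was 110392 to 115097 in NS398 cells and 100627 to 115410 in control cells. Of 12 fibroblast, leukocyte and endothelial markers 11 were measured, 2 were above 128, and the summed signal of the 11 was 1032 to 1208 in NS398 cells against 625.4 to 828.2 in control cells, with none listed at 0. Of these LUM was called higher, with signals of 327.9, 165.5 and 184.0 in NS398 cells, against 54.2, 51.7 and 33.6 in control cells (2.24 ± 0.38, adjusted p = 0.00514). The 3′ to 5′ signal ratio of ACTB, which reads RNA integrity, was 1.56 ± 0.13 in NS398 cells and 1.29 ± 0.03 in control cells (SD, n = 3 each, exact permutation p = 0.1, the smallest that 3 against 3 arrays allow). That of GAPDH overlapped between the groups, with 1.10 ± 0.09 in NS398 cells and 1.03 ± 0.06 in control cells (SD, exact permutation p = 0.5). The 18S probe set read 23625, 12397 and 4825 in NS398 cells, against 3453, 3783 and 4856 in control cells. The part of these differences in the results that follow was not tested.

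HSPA9 (mortalin, the HSP70 of the matrix) had signals of 15971, 14165 and 13934 in NS398 cells, against 8251, 6947 and 7435 in control cells (200691_s_at). Every NS398 array was well above every control array, and the lowest treated value exceeded the highest control value. The difference was 0.96 ± 0.10 (95% interval 0.74 to 1.18, adjusted p = 0.000287). HSPA9 has 4 probe sets, and the other two bright ones gave 0.96 ± 0.11 (200692_s_at) and 1.15 ± 0.14 (200690_at), both called. The fourth, 232200_at, was dim and was not called, with 1.57 ± 0.98.

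HSPD1 (HSP60), the chaperonin subunit, had signals of 52771, 58693 and 44830 in NS398 cells, against 40962, 46704 and 33450 in control cells (200807_s_at). The groups overlapped, since the highest control array lay above the lowest NS398 array. The difference was 0.37 ± 0.13 (95% interval 0.09 to 0.65), with an adjusted p of 0.127. The next brightest probe set, 200806_s_at, gave 0.25 ± 0.13, and 0 of the 5 HSPD1 probe sets were called. HSPD1 has processed pseudogenes in the human genome, and how much of the signal they give was not tested. HSPD1 was called with the mean of all 5 probe sets, at 0.69 and an adjusted p of 0.0287. That mean takes in the much dimmer 241716_at, 243845_at and 243372_at, with larger differences of 1.45 ± 0.51, 0.81 ± 0.47 and 0.56 ± 0.27.

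HSPE1 (HSP10), the lid of the chamber, had signals of 12085, 11637 and 10137 in NS398 cells, against 11539, 13434 and 11574 in control cells (205133_s_at). The arrays of the groups were intermixed. The difference was -0.11 ± 0.10 (95% interval -0.34 to 0.11, adjusted p = 0.641), so a rise above 0.11 on the log2 scale lies outside the interval. RefSeq also lists the read-through gene HSPE1-MOB4 from the same start, and the array annotation names HSPE1 alone.

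Because HSPD1 and HSPE1 share the upstream stretch shown above, their ratio was taken within each array. The log2 signal of HSPD1 minus that of HSPE1 was 2.13, 2.33 and 2.15 on the NS398 arrays, against 1.83, 1.80 and 1.53 on the control arrays. The groups did not overlap, and the difference was 0.48. This ratio was not a planned comparison, and how many other gene pairs separate in this way was not counted. No p is given for it, since the members were chosen with results of these arrays known. The ratio of signals of different probe sets is not a ratio of molecules, so only its change between groups can be read.

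TRAP1, the mitochondrial HSP90, had signals of 6669, 6922 and 7750 in NS398 cells, against 6700, 4522 and 5243 in control cells (201391_at). Control array 1 lay between the lowest NS398 arrays, and the other two control arrays were below all of them. The difference was 0.39 ± 0.14 (95% interval 0.09 to 0.69, adjusted p = 0.14), and without control array 1 it was 0.54 with an adjusted p of 0.013. The second TRAP1 probe set, 239622_at, was near background. With the mean of both probe sets the TRAP1 difference was -0.60 (adjusted p = 0.598).

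**Figure D1:**
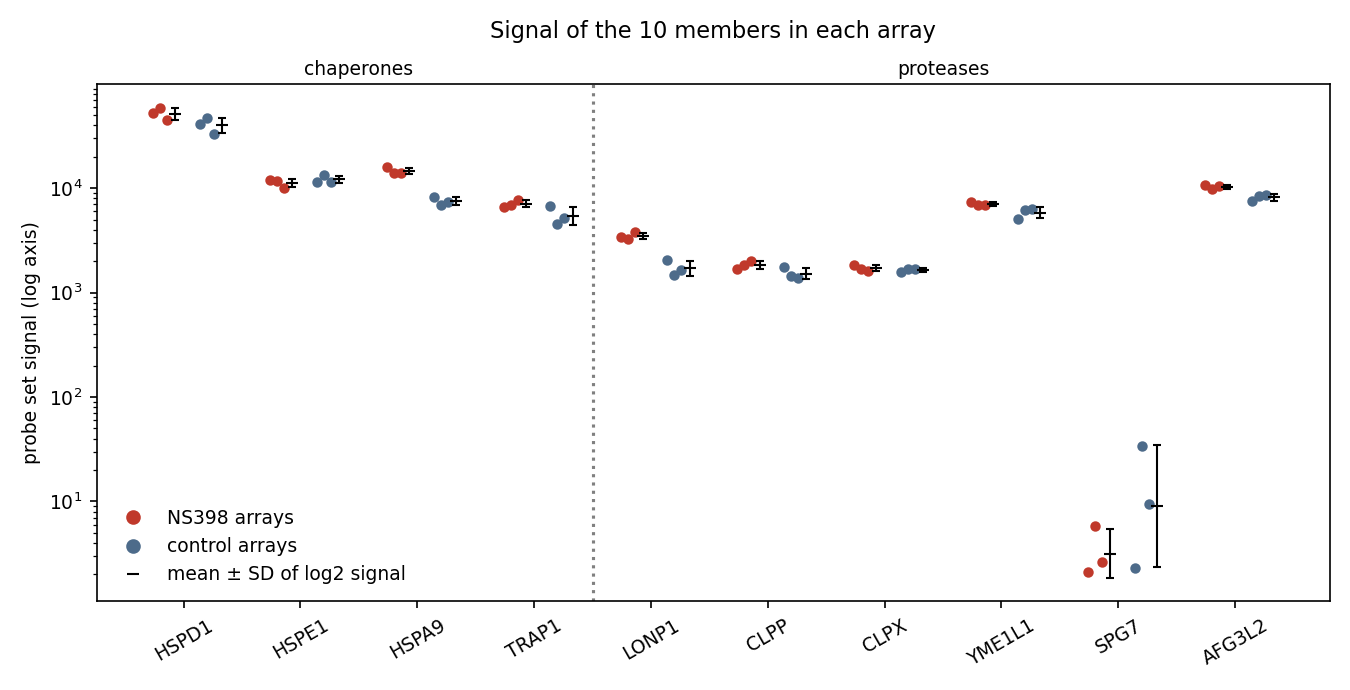
Signal of each member on each array (log axis), with NS398 arrays left of control arrays and the mean ± SD of the log2 signal beside each group. HSPA9 and LONP1 separate by about a whole log2 unit, AFG3L2 and YME1L1 separate by less, and the only probe set of SPG7 alone lies near background.

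Among the proteases, LONP1, the matrix protease that degrades oxidised and misfolded proteins, had signals of 3407, 3283 and 3790 in NS398 cells, against 2047, 1473 and 1655 in control cells (209017_s_at). All NS398 arrays were above all control arrays. The difference was 1.03 ± 0.14 (95% interval 0.73 to 1.33, adjusted p = 0.00116), and LONP1 has no other probe set of its own.

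CLPP, the peptidase barrel, had signals of 1691, 1844 and 2014 in NS398 cells, against 1761, 1445 and 1391 in control cells (202799_at). Control array 1 lay above the lowest NS398 array. The difference was 0.28 ± 0.13 (95% interval -0.02 to 0.57, adjusted p = 0.307). CLPX, the unfoldase that feeds CLPP, had signals of 1851, 1680 and 1619 in NS398 cells, against 1564, 1673 and 1702 in control cells (204809_at). Its groups were intermixed, with a difference of 0.06 ± 0.12 (95% interval -0.20 to 0.32, adjusted p = 0.85), and the second CLPX probe set, 223507_at, gave -0.04 ± 0.14. The LONP1 difference of 1.03 lay above the interval of either member of the CLPXP protease.

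YME1L1, the protease facing the intermembrane space, had signals of 7412, 6875 and 6936 in NS398 cells, against 5061, 6154 and 6344 in control cells (201352_at). The groups did not overlap, but the gap between them was small beside the spread of the control arrays. The difference was 0.28 ± 0.11 (95% interval 0.04 to 0.52, adjusted p = 0.182). YME1L1 has 20 probe sets by the annotation, of which 16 had a mean signal of 128 or less, and 201352_at is the one that carries a RefSeq transcript of the gene. The other bright probe sets gave 0.16 ± 0.11 (216304_x_at), 0.07 ± 0.12 (201351_s_at) and 0.31 ± 0.15 (232216_at), and 0 of the 20 were called.

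AFG3L2, the subunit that can form the inner membrane protease of the matrix face by itself or with SPG7, had signals of 10647, 9737 and 10443 in NS398 cells, against 7555, 8354 and 8709 in control cells (1557820_at). The lowest NS398 array was above the highest control array. The difference was 0.33 ± 0.09 (95% interval 0.12 to 0.53), with an adjusted p of 0.067. The probe set that carries its RefSeq transcript, 202486_at, read 2626, 2702 and 2931 in NS398 cells, against 2979, 2190 and 1833 in control cells. There the groups overlapped through control array 1, and the difference was 0.27 ± 0.16 (adjusted p = 0.433).

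SPG7 (paraplegin), the partner of AFG3L2, could not be read from its own probe set, 238286_at, which had signals of 2.1, 5.8 and 2.6 in NS398 cells, against 2.3, 33.7 and 9.5 in control cells. These values are near background and overlap, and the difference was -1.51 ± 1.08 (95% interval -3.88 to 0.85, adjusted p = 0.518). A further 6 probe sets are annotated to SPG7 together with the long non-coding RNA LOC101930112 and fall outside the rule, so they were looked at after the values of 238286_at were seen. The brightest of them, 214494_s_at, read 1409, 1522 and 1552 in NS398 cells, against 2115, 1895 and 1943 in control cells (-0.41 ± 0.12, adjusted p = 0.0621). On 202104_s_at the signals were 957.5, 1012 and 1127 in NS398 cells, against 2229, 1879 and 1752 in control cells (-0.92 ± 0.14, adjusted p = 0.00228). On 230884_s_at they were 430.3, 433.5 and 438.9 in NS398 cells, against 749.3, 690.2 and 764.6 in control cells (-0.76 ± 0.15, adjusted p = 0.0106). All 3 were lower on every NS398 array, 2 of them were called, and the transcript of SPG7 and that of LOC101930112 cannot be told apart on them. The other 3, 230885_at, 238179_at and 235325_at, gave -0.05 ± 0.26, -0.43 ± 0.33 and 0.32 ± 0.88 and were not called.

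**Figure D2:**
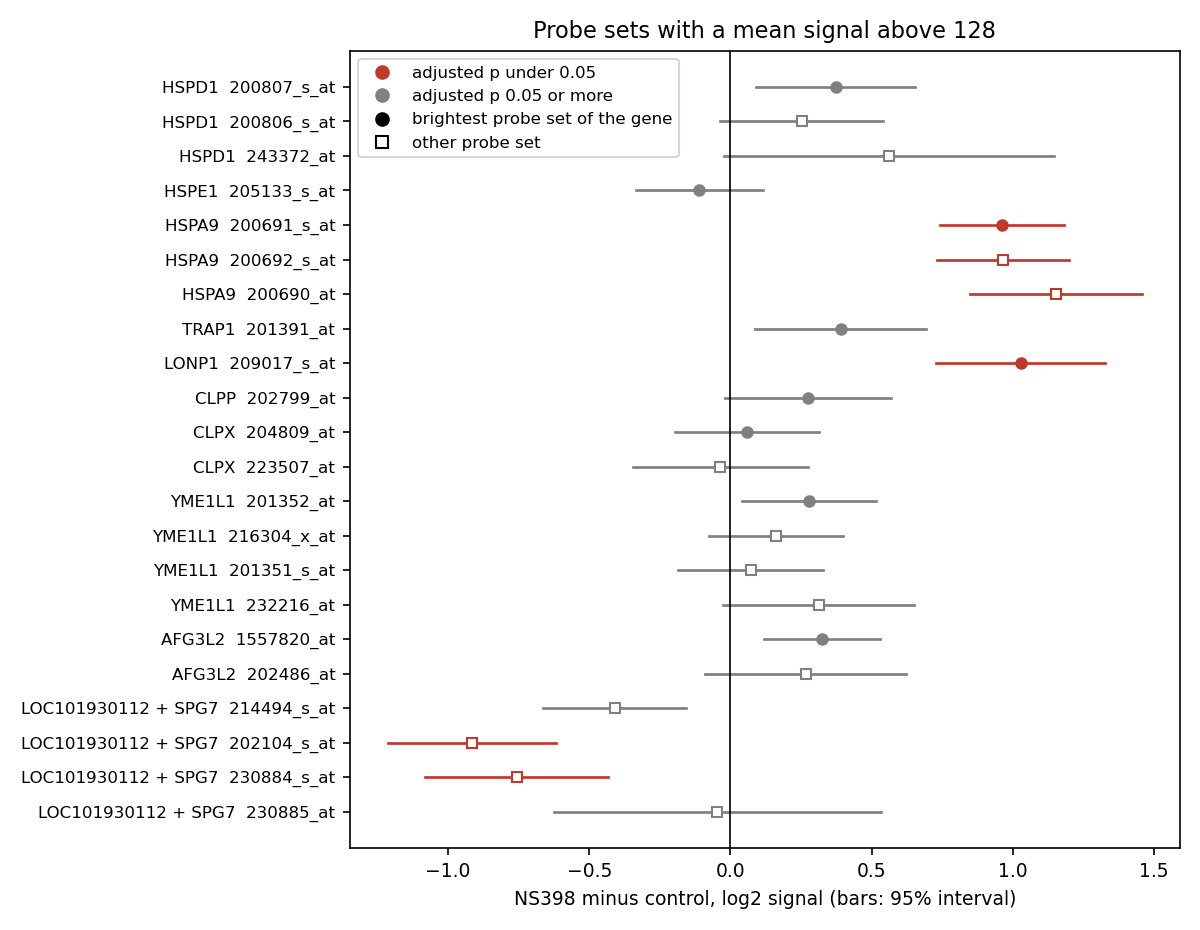
Difference NS398 minus control (log2) with its 95% interval for the member probe sets with a mean signal above 128, chaperones above proteases, with the probe sets shared by SPG7 and LOC101930112 at the bottom. The 3 bright HSPA9 probe sets and the LONP1 probe set lie around 1, and the bright shared SPG7 probe sets lie below 0.

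Over the 10 members, 2 were called higher and 0 lower, beside 5.23% of all genes called higher. With an unadjusted p under 0.05 in the same limma test, 6 were higher and 0 lower, beside 13.2% of all genes higher and 11.3% lower. The shares of all genes in this paragraph include dim genes, while every member but SPG7 had a mean signal above 128. The members were chosen with earlier results of these arrays known, so the counts are a description and were not tested against these shares. With only probe sets of a mean log2 signal above 7 tested, 1402 of 10668 genes were called higher and 1286 lower. Of the members, 1 chaperone and 2 proteases were then called higher. The groups did not overlap in 4 members, all of them higher (HSPA9, LONP1, YME1L1 and AFG3L2), and this held for 17.2% of all genes in that direction and 13.5% in the other. The median difference was 0.30 over the 10 members, 0.33 without SPG7 and 0.06 over all genes. Of the 40 probe sets, 18 had a mean signal above 128, and 4 were called, 3 of HSPA9 and 1 of LONP1, all of them bright. Beside this, 6.43% of all probe sets were called. With only bright probe sets tested, 4713 of 22399 were called. With plain eBayes of limma, which gives dim and bright probe sets a common prior variance, 0 of the 10 members were called, and 2 had an unadjusted p under 0.05, beside 17.6% of all genes. HSPA9 then had an adjusted p of 0.112 and LONP1 of 0.128, and that test called 0.0759% of all genes.

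Chaperones and proteases were then set against each other. Of the 4 chaperones 1 was called higher, with a median difference of 0.38, and of the 6 proteases 1 was called higher, with a median of 0.28. Beside this, 5.23% of all genes were called higher, and the median over all genes was 0.06. The mean log2 signal of the chaperones was 13.98, 13.97 and 13.86 on the NS398 arrays, against 13.63, 13.53 and 13.44 on the control arrays, a difference of 0.40. That of the 5 proteases other than SPG7 was 11.91, 11.85 and 11.93 on the NS398 arrays, against 11.52, 11.47 and 11.52 on the control arrays, a difference of 0.39. The NS398 and control values did not overlap in either of these means. With SPG7 included, the protease mean was 10.10, 10.30 and 10.17 on the NS398 arrays, against 9.80, 10.40 and 10.14 on the control arrays, which overlap, a difference of 0.08.

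The chaperone mean minus the protease mean, all 6 proteases included, was 3.88, 3.68 and 3.69 on the NS398 arrays, against 3.84, 3.13 and 3.30 on the control arrays. These overlap, and their difference of 0.33 rests on the near-background SPG7 probe set. Without SPG7 the values were 2.07, 2.13 and 1.94 on the NS398 arrays, against 2.12, 2.06 and 1.92 on the control arrays, a difference of 0.01. With SPG7 read from 214494_s_at it was 0.14. No p is given for these means, since the members were chosen with results of these arrays known.

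Among partners of the chaperones (8 genes), 2 were called higher and 0 lower, with a median of 0.25. Beside this and the lists that follow, 5.23% of all genes were called higher and 4.85% lower, with a median of 0.06. These shares include dim genes. With only probe sets of a mean log2 signal above 7 tested, 1402 of 10668 genes were called higher and 1286 lower. DNAJA3, the HSP40 that works with HSPA9, had signals of 5185, 4768 and 5062 in NS398 cells, against 3109, 2970 and 3227 in control cells (0.69 ± 0.10, adjusted p = 0.00174). GRPEL2, a nucleotide exchange factor of HSPA9, had 2501, 2374 and 2132 in NS398 cells, against 1344, 1443 and 1332 in control cells (0.76 ± 0.12, adjusted p = 0.00278). In both the groups were far apart, as in HSPA9. The paralogue GRPEL1 had 2018, 2193 and 2080 in NS398 cells, against 2936, 1939 and 2185 in control cells, which overlap (-0.14 ± 0.15, adjusted p = 0.684). GRPEL1 was named after its values were seen.

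Of 13 other mitochondrial proteases and peptidases, 3 were called higher and 1 lower, beside 5.23% and 4.85% of all genes. The median was 0.12. Higher were LACTB, a filament-forming protease of the intermembrane space (0.74 ± 0.14, adjusted p = 0.00974), METAP1D, which removes the first methionine (0.77 ± 0.15, adjusted p = 0.0109), and OMA1, the stress-activated protease of the inner membrane (0.72 ± 0.18, adjusted p = 0.0349). IMMP1L, a subunit of the inner membrane peptidase, was lower (-0.55 ± 0.14, adjusted p = 0.0406). OMA1 had signals of 1843, 1312 and 1266 in NS398 cells, against 735.7, 906.9 and 1019 in control cells. LACTB was called in 11, METAP1D in 8, OMA1 in 6 and IMMP1L in 5 of the 13 alternatives that keep the variance trend.

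Of the regulators linked to the mitochondrial stress response, 7 of 8 were measured, and the median was 0.27. Of these, 3 were called higher and 0 lower, beside 5.23% and 4.85% of all genes. ATF4, the transcription factor of the integrated stress response, had signals of 41874, 41220 and 40492 in NS398 cells, against 20865, 20235 and 19065 in control cells (1.04 ± 0.08, adjusted p = 3.06e-05). DDIT3 had 1794, 1209 and 1724 in NS398 cells, against 760.8, 648.4 and 773.8 in control cells (1.10 ± 0.17, adjusted p = 0.00294). CEBPB, a factor that pairs with DDIT3, had 24203, 20692 and 22539 in NS398 cells, against 9697, 7993 and 9328 in control cells (1.32 ± 0.10, adjusted p = 4.14e-05). In these 3 genes no arrays overlapped, and the calls were kept in 13 of 13 alternatives with the variance trend. With plain eBayes their adjusted p-values were 0.0897, 0.139 and 0.0897.

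ATF5 had signals of 353.2, 396.3 and 450.5 in NS398 cells, against 417.7, 353.9 and 343.9 in control cells, which overlap (0.10 ± 0.18, adjusted p = 0.831). HSF1, the heat shock factor, gave 0.25 ± 0.16 (adjusted p = 0.46). The kinase EIF2AK1, which passes mitochondrial stress to ATF4, gave -0.21 ± 0.09 (adjusted p = 0.246), and DELE1, which activates it, gave 0.27 ± 0.14 (adjusted p = 0.362).

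**Figure D3:**
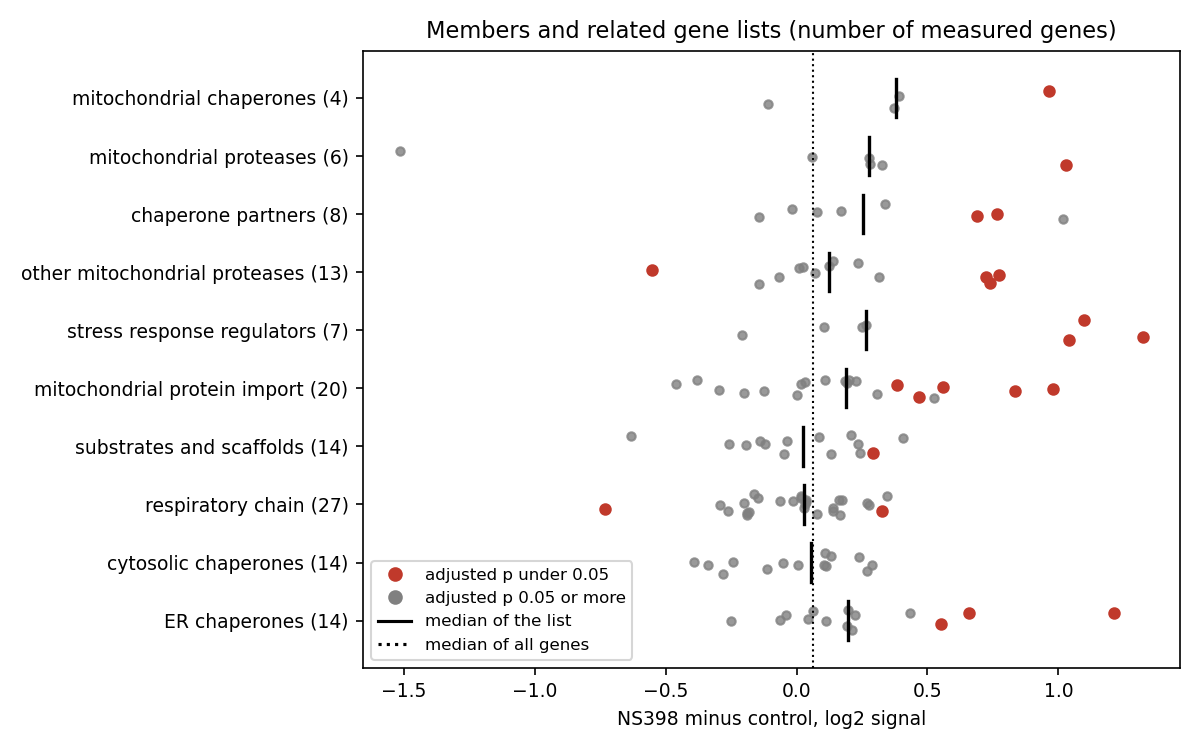
Difference NS398 minus control (log2) of each measured gene of the members and of the other lists, with called genes marked and the list median as a bar. Called genes are HSPA9 and LONP1 among the members, with medians of 0.38 for the chaperones and 0.28 for the proteases, beside 0.05 for the cytosolic chaperones.

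Of the machinery that imports proteins into mitochondria, 20 of 22 genes were measured, with a median of 0.19. Of these, 5 were called higher and 0 lower, beside 5.23% and 4.85% of all genes. TIMM9, a small protein of the intermembrane space, had signals of 2770, 2603 and 2727 in NS398 cells, against 1288, 1311 and 1518 in control cells (0.98 ± 0.12, adjusted p = 0.000629). PAM16, a subunit of the motor that works with HSPA9, had 1554, 1816 and 1828 in NS398 cells, against 944.7, 1014 and 950.6 in control cells (0.83 ± 0.13, adjusted p = 0.00259). Both were kept in 13 of 13 alternatives with the variance trend, as was DNAJA3. TIMM10, the partner of TIMM9 (0.47 ± 0.11), and CHCHD4, which oxidises such small proteins as they enter (0.56 ± 0.13), were called in 6 and 7 of these. The receptor TOMM70, the fifth called gene (0.38 ± 0.09), was called in 6.

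Of 16 genes for known substrates and scaffolds of the proteases 14 were measured, with a median of 0.02. Beside 5.23% of all genes called higher and 4.85% lower, 1 of them was called higher and 0 lower. It was PHB2, a prohibitin of the ring around the AFG3L2 protease (0.29 ± 0.08, adjusted p = 0.047, called in 5 of 13 alternatives). Of 30 respiratory chain genes 27 were measured, and 1 was higher and 1 lower, with a median of 0.03. SDHA, the flavoprotein of complex II, was lower, with signals of 4837, 5348 and 5238 in NS398 cells, against 11787, 7442 and 7068 in control cells (-0.73 ± 0.17, adjusted p = 0.0245, called in 10 of 13 alternatives), and UQCRB of complex III was higher (0.33 ± 0.09, called in 3 of 13 alternatives).

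The chaperones of other compartments were read for comparison. Of 17 cytosolic chaperones 14 were measured, 0 were called in the limma variance-trend test and the median was 0.05. At an unadjusted p under 0.05, 3 were higher and 3 lower, beside 24.5% of all genes in either direction, and plain eBayes called 0. Of 14 chaperones of the endoplasmic reticulum (ER), 3 were called higher and 0 lower, beside 5.23% and 4.85% of all genes. The median was 0.20. The 3 called were DNAJB9 (1.21 ± 0.15, adjusted p = 0.000732), the ER HSP70 HSPA5 (0.55 ± 0.11) and HYOU1 (0.66 ± 0.13). HSPA5 had an NS398 mean of 29680 and a control mean of 20228. Differences between the lists themselves were not tested.

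**Figure D4:**
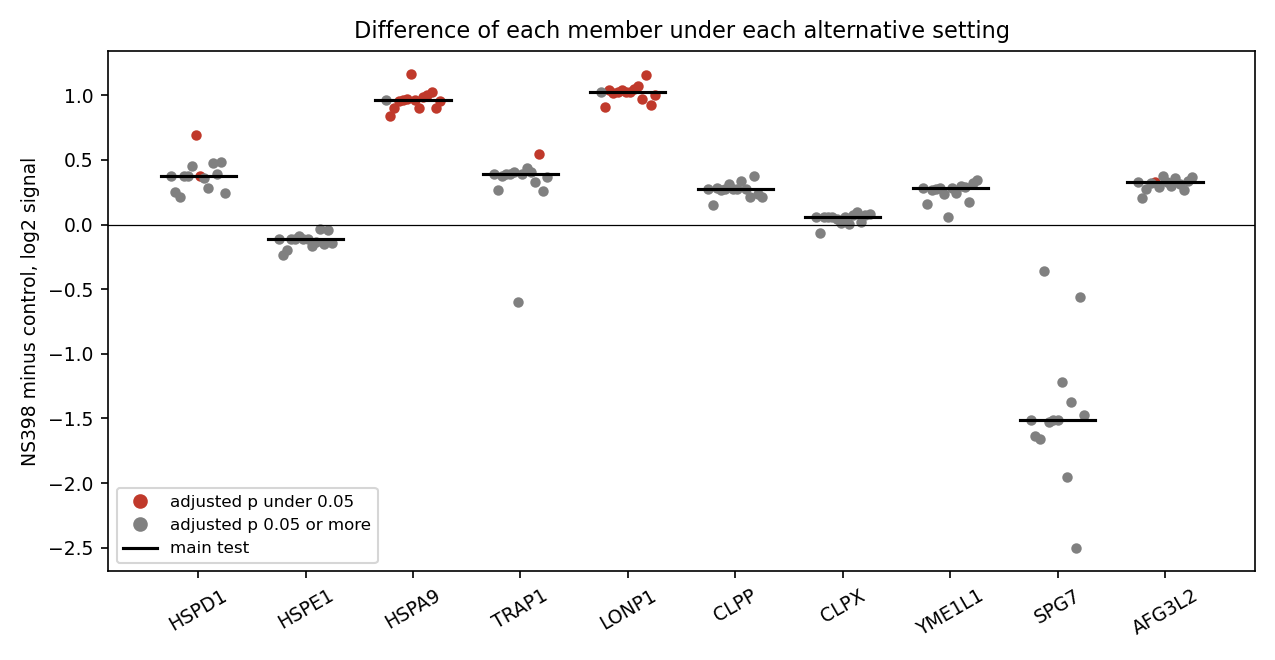
Difference NS398 minus control (log2) of each member under 14 alternatives (13 for SPG7), in red where the adjusted p is under 0.05, with a bar at the value reported above. HSPA9 stays between 0.84 and 1.16 and LONP1 between 0.91 and 1.16, and SPG7 has the widest spread, between -2.50 and -0.36.

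HSPA9 and LONP1 were called in 13 of 14 alternatives, with differences of 0.84 to 1.16 and 0.91 to 1.16 and adjusted p-values of 0.000121 to 0.112 and 0.000384 to 0.128. HSPE1, CLPP, CLPX, YME1L1 and SPG7 were called in 0 of those run. HSPD1 was called in 2 of 14, and TRAP1 and AFG3L2 in 1 each.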

How the data were processed

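RNA of 3 NS398-treated and 3 control samples of HT29 cells was hybridised on 1 array each, and groups were taken from the labels. The files hold array intensity on a linear scale, 1 signal per probe set, summarised and scaled by the authors. They range from 0.1 to 80608.2 with a mean of 500 on each array after removal of the top and bottom 2%, and a median of 65 to 80.2. This is the scale of MAS 5.0 signals and not of the gcRMA values that the methods name. The submitters' processing notes name affy and no version. The log2 of each signal was taken without an offset. Columns that matched no sample numbered 0.

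Gene symbols were updated by Entrez number through RefSeq (GRCh38.p14). Of 54675 probe sets, 41097 name 1 gene, 1801 several and 11777 none. Means of signals are geometric. Every probe set entered the test of limma 3.58.1 (lmFit and eBayes, R 4.3.3), with trend and robust estimation and Benjamini-Hochberg adjustment over all probe sets at 0.05. A gene was then read from its brightest probe set. SAM, which the methods name, was not run, since it rests on relabelling 3 against 3 arrays. Alternatives (14) were plain eBayes, median centring, quantile normalisation, an offset of 32, a minimum mean log2 signal of 7 (a signal of 128), array weights, the mean of all probe sets, a block for the replicate number and the omission of each array in turn. After the data were seen, SPG7 was also left out or read from a shared probe set, and AFG3L2 was read from its RefSeq probe set. The comparison of HSPD1 with HSPE1 within each array was not planned either. The procedure was tested on simulated data, with differences planted only in probe sets of high signal, so recovery at low signal was not tested. Python 3.11.15, scipy 1.17.1 and matplotlib 3.10.9 were used.

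The members and lists were chosen with earlier results of these data known. Named genes are all 10 members, up to 4 called genes with the smallest p in each other list, the stress response regulators and PTGS2. TOMM70, GRPEL1 and the dim markers CDX1, CDX2 and CDH17 fall outside this rule and were named after their values were seen. The number of arrays and the spread of dim signals limit precision.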

Additional observations from a re-analysis of the deposited data

How the results depend on the processing

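Of 139 values of single members under the 14 alternatives, 131 kept their direction and their side of the threshold, as did both values added after the data were seen. In 2 the direction reversed: TRAP1 was -0.60 with the mean of all probe sets, which averages in a near-background one, and CLPX was -0.0624 with median centring. Of the chaperones 1 was called, against 0 with plain eBayes, 2 with the mean of all probe sets, 2 with the replicate block and 1 to 2 with 1 array left out (TRAP1 without control replicate 1). Of the proteases 1 was called, against 0 with plain eBayes and 2 with the filter on a mean log2 signal above 7. The 3513 calls over all probe sets became 24 with plain eBayes and 1826 to 3984 with 1 array left out, the lower counts being 1826, 1896 and 2340 without NS398 replicates 1, 2 and 3 and 1876 without control replicate 3. The chaperone minus protease difference of 0.33 was 0.0098 with that filter, which drops SPG7, and with SPG7 left out, and 0.14 with an offset of 32. It was 0.18 without control replicate 2 and 0.54 without control replicate 1, and these were its lowest and highest with 1 array left out. Median centring put the median gene at -0.06 instead of 0.06, and the 1782 higher and 1731 lower probe sets became 864 and 1943, while HSPA9 and LONP1 stayed called at 0.84 and 0.91. Replicate numbers did not pair the arrays: deviations of same-numbered arrays had r of -0.14 to -0.06, and 0 of 3 NS398 arrays were closest to the control array of their number. With the replicate block 2462 probe sets were called, and HSPD1 was among them (adjusted p = 0.0219).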
